A study of Mus musculus with 10 samples.

Results

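Expression of 7 mouse genes that make, conjugate or export bile acids was followed in liver RNA pools of mice with gained or lost activity of SREBPs, the membrane-bound transcription factors of lipid synthesis. The genes are Cyp7a1, Cyp7b1, Cyp8b1, Slc27a5, Baat, Abcc2 and Abcc3, and all 7 were found among the 8251 genes measured. They were chosen by name as a functional group, with earlier results of these data known. Each was read from the probe set that the platform annotation gives to it alone. Cyp7b1 alone had a choice, between 2 probe sets, and the one with the higher mean over the 10 arrays was used.

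Mice of 5 groups were studied, all male. The transgene of TgSREBP-1a mice encodes truncated, constantly active human SREBP-1a, and that of TgSREBP-2 mice the same form of human SREBP-2. Both were set against wild type littermates. For 2 weeks these 3 groups, aged 12 to 16 weeks, were fed much protein and little carbohydrate, which switches on the transgenes, so the wild type mice had this food too. The Scap-/- mice lacked SCAP, the escort protein that SREBPs need for activation, after deletion in liver by Cre from the interferon-inducible Mx1 promoter, which is not limited to hepatocytes. This group and its wild type mice, all 10 to 12 weeks old and fed Teklad chow, both received 4 injections of polyinosinic-polycytidylic acid, with livers taken 14 days after the last. RNA of 5 mice was combined into 1 pool per group, and each pool was hybridised to 2 arrays. All p-values below therefore compare pools and carry only the spread between 2 hybridisations, not that between mice. In pooled tissue RNA, fewer cells of a type and less RNA per cell cannot be told apart.

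Bile acids are made from cholesterol in hepatocytes and are the main route by which the body disposes of cholesterol. In the classic pathway CYP7A1 adds the first, rate-limiting hydroxyl group to cholesterol, while CYP7B1 does so for oxysterols in the alternative pathway. CYP8B1 then decides how much cholic acid is made. SLC27A5 activates bile acids with coenzyme A, BAAT joins them to taurine or glycine, and the pumps ABCC2 and ABCC3 carry conjugated anions into bile and into blood. Bile acids repress the pathway through the receptor FXR, the product of Nr1h4.

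Signals are given on the log2 scale of the deposited table, where 1 unit is a 2-fold step, and levels of different probe sets were not set against each other. Duplicate arrays correlated at 0.9921 to 0.9978 over all genes. Duplicates differed more in the 3 high protein pools, with 55 to 151 genes at least 1.5-fold apart, than in the chow pools, with 0 and 6. Scap has no probe set of its own name in the annotation used, so the deletion was not checked here. As a check on the direction of the models, 12 of 13 measured cholesterol synthesis genes were called higher in TgSREBP-1a and 13 of 13 in TgSREBP-2. In Scap knockout 11 of 13 were called lower. Between the wild type pools, 11 of 13 were also called lower on high protein than on chow. Both transgenic comparisons thus start from a wild type pool in which most of these genes were already lower than on chow. Throughout, a called gene differs 1.5-fold or more and has an adjusted p below 0.05 in a limma fit over all genes.

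The members called were not the same set in any pair of models, and Abcc3 was called in both transgenic pools. In TgSREBP-1a livers 3 of the 7 fell (Cyp7b1, Cyp8b1 and Baat) and 1 rose (Abcc3). In TgSREBP-2 livers 2 of the 7 rose, the export pumps Abcc2 and Abcc3. In Scap knockout livers 1 of the 7 fell, Slc27a5. Of all 8251 genes, TgSREBP-1a had 7.37% called in either direction, 4.78% higher and 2.59% lower. TgSREBP-2 had 2.57% called, 2.18% higher and 0.388% lower. Scap knockout had 1.66% called, 0.739% higher and 0.921% lower. The median difference over the 7 genes was -0.38 for TgSREBP-1a, 0.11 for TgSREBP-2 and -0.12 for Scap knockout. Over all genes these medians were -0.03, -0.02 and 0.00. Both transgenic comparisons share the same 2 wild type arrays. The members were chosen with earlier results of these data known, so these shares describe the group and do not test it.

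**Figure D1:**
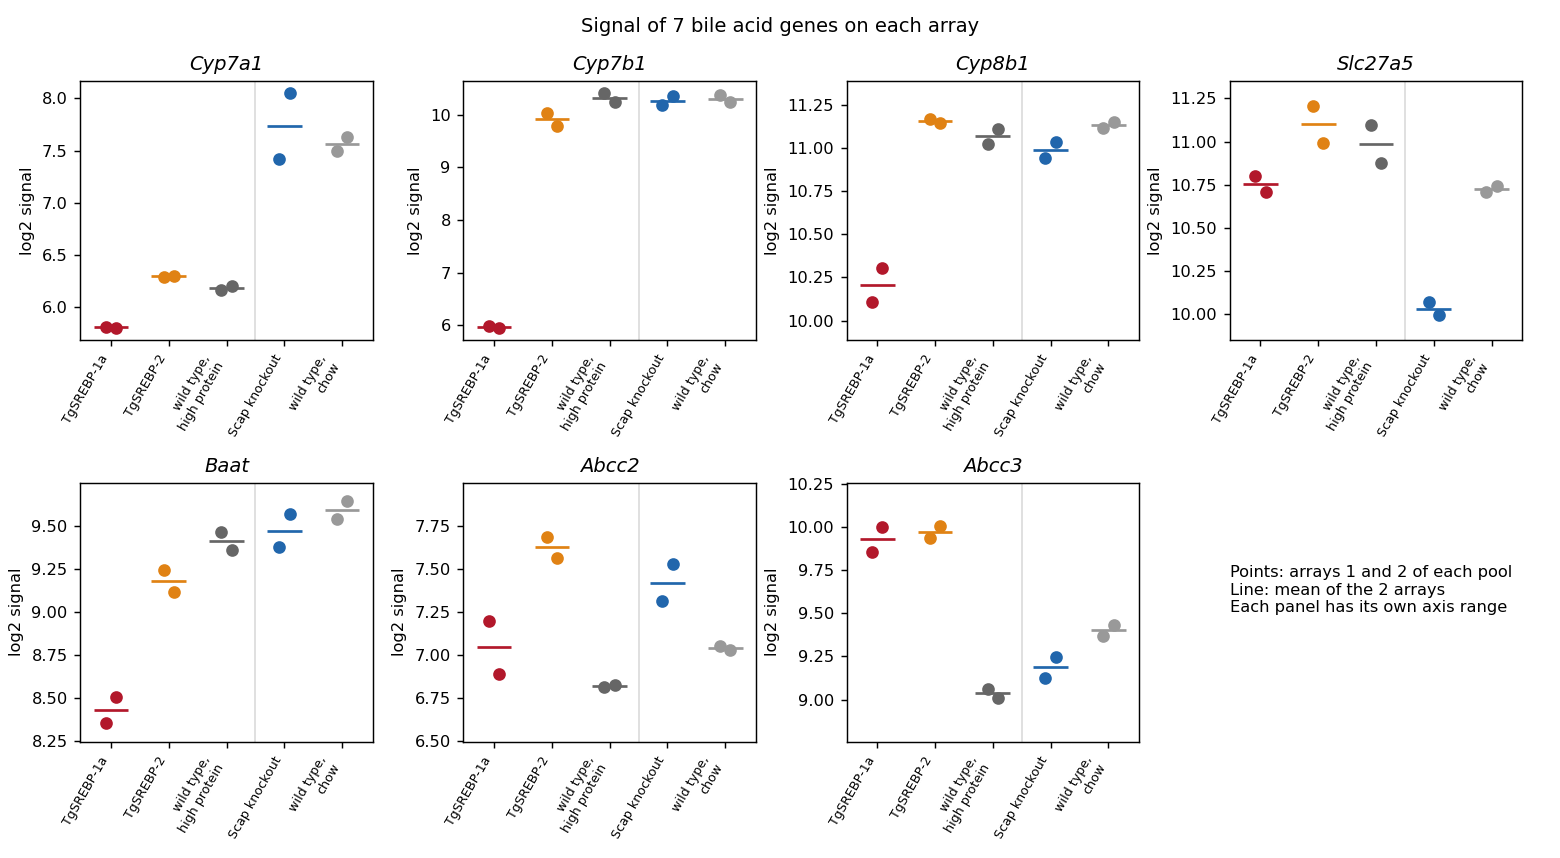
Log2 signal of each of the 7 genes on every array, by group, with the mean of the 2 arrays as a line; the grey vertical line separates the high protein set from the chow set. Cyp7b1 sits at 5.95 and 5.98 on the TgSREBP-1a arrays and between 9.78 and 10.42 on the other 8 arrays.

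Cyp7b1, the oxysterol 7-alpha-hydroxylase, showed the largest difference of the group. Its log2 signal was 5.98 and 5.95 in TgSREBP-1a, against 10.42 and 10.24 in wild type on high protein. The TgSREBP-2 arrays read 10.04 and 9.78, the Scap knockout arrays 10.18 and 10.36, and the chow-fed wild type arrays 10.37 and 10.24. The 2 TgSREBP-1a arrays stood far below the 8 others. In TgSREBP-1a Cyp7b1 fell by 4.36 ± 0.11 (log2 difference and standard error, 95% interval -4.61 to -4.12), or 20.6-fold (limma adjusted p = 2.58e-09). Of all 8251 genes only Prss2, a pancreatic trypsinogen, fell further in that comparison. At 5.97 the TgSREBP-1a mean was below the array medians of 6.37 to 6.40. Detection calls were not used here, so how much of that signal is background is not known.

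The used Cyp7b1 probe set carries the suffix that marks probes shared within a family of sequences, so the other set was read as a check. It gave 5.00 and 4.76 in TgSREBP-1a, against 9.77 and 9.33 in wild type on the same diet, a difference of -4.67 ± 0.16. Both sets thus placed the TgSREBP-1a arrays below all 8 others. In TgSREBP-2 the difference on the used set was -0.42 ± 0.11 (-0.66 to -0.17, adjusted p = 0.0629, or 0.00928 with the array number as a replicate block), with both arrays below both wild type arrays. On the other set it was -0.24 ± 0.16 (limma adjusted p = 0.527 over probe sets), and the arrays overlapped, at 9.51 and 9.11 against 9.77 and 9.33. In Scap knockout the difference on the used set was -0.04 ± 0.11 (-0.28 to 0.21), with overlapping arrays. The direct comparison of the transgenic pools placed Cyp7b1 lower in TgSREBP-1a by 15.4-fold (log2 difference -3.95 ± 0.11, adjusted p = 8.51e-09).

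Cyp7a1, the cholesterol 7-alpha-hydroxylase, differed more between the diet sets than between genotypes. Its log2 signal was 5.82 and 5.80 in TgSREBP-1a and 6.29 and 6.30 in TgSREBP-2, against 6.17 and 6.21 in wild type on high protein. It was 7.42 and 8.05 in Scap knockout, against 7.50 and 7.63 in chow-fed wild type. All 6 high protein arrays were below all 4 chow arrays. TgSREBP-1a lay below its wild type without overlap, at -0.38 ± 0.16 (-0.74 to -0.02), which did not pass the test (adjusted p = 0.141, or 0.0153 with the block, at the same difference of under 1.5-fold). TgSREBP-2 differed by 0.11 ± 0.16 (-0.25 to 0.46). Scap knockout differed by 0.17 ± 0.16 (-0.18 to 0.53, adjusted p = 0.942), and its 2 arrays spanned the wild type pair. That duplicate gap of 0.63 was the largest of any of the 7 genes. The Cyp7a1 gap was 0.01 in each transgenic pool and 0.04 in wild type on high protein. Since the fit has 1 variance per gene over all groups, the error of 0.16 comes mainly from the Scap knockout pair. This holds for the comparisons of the transgenic pools too. Without replicate 2 of Scap knockout its difference from wild type was -0.14.

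Between the wild type pools Cyp7a1 was 2.59-fold lower on the high protein diet (-1.37 ± 0.16, adjusted p = 0.000349). It was the only 1 of the 7 genes called there, where 5.62% of all genes were called, 1.28% higher and 4.34% lower. These pools differ in diet, age, injections and mouse line together, so the part of each cannot be told apart. The 6 others had differences between -0.37 (Abcc3) and 0.26 (Slc27a5). Abcc3 passed the adjusted p without reaching 1.5-fold (-0.37 ± 0.09, adjusted p = 0.014).

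Cyp8b1, the sterol 12-alpha-hydroxylase of cholic acid synthesis, fell in TgSREBP-1a. Its log2 signal was 10.11 and 10.30 there, against 11.02 and 11.11 in wild type on the same diet, a fall of 0.86 ± 0.09 or 1.82-fold (adjusted p = 6.75e-05). TgSREBP-2 read 11.17 and 11.15, above both wild type arrays by a small margin (0.09 ± 0.09, interval -0.11 to 0.29). Scap knockout read 10.94 and 11.03, against 11.12 and 11.15 in chow-fed wild type (-0.15 ± 0.09, interval -0.34 to 0.05). The TgSREBP-1a arrays were the lowest pair of the 10. The direct comparison placed Cyp8b1 lower in TgSREBP-1a than in TgSREBP-2 by 0.95 ± 0.09 (log2 difference -0.95, adjusted p = 4.17e-05).

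RefSeq promoter windows of the table used, 250 bases before to 50 after the transcript start, were listed for 2 of the 7 genes, Cyp8b1 and Abcc2. The Cyp8b1 window is shown because the gene fell with the SREBP-1a transgene and not with that of SREBP-2. It lies at chr9:121916256-121916555 on the minus strand of GRCm38.p6, and capitals mark a TATAAA match that begins 31 bases before the start.
Cyp8b1: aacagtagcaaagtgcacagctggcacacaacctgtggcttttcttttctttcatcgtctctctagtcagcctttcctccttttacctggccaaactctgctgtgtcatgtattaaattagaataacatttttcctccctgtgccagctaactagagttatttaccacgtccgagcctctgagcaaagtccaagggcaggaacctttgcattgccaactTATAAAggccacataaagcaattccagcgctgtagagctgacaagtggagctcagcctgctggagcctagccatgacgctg
TATAAA, searched on both strands, was present in 13.6% of all 32851 windows in the table. The window held no match to TCACNCCAC, a form of the sterol regulatory element that SREBPs bind, which 1.24% of all windows hold. It held none to the E-box CACGTG, found in 7.15%, or to AGGTCA, the half-site of many nuclear receptors, found in 16.3%. Exact copies of these letters were searched, so sites that differ from them were not looked for. A match or its absence describes the letters in this window only.

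The conjugating enzymes split between the models. Baat, which joins bile acids to taurine or glycine, read 8.36 and 8.51 in TgSREBP-1a, against 9.46 and 9.36 in wild type on the same diet. It fell there by 0.98 ± 0.10, or 1.97-fold (adjusted p = 6.2e-05). TgSREBP-2 lay between, at 9.24 and 9.11, and did not pass the test (-0.23 ± 0.10, interval -0.45 to -0.01, adjusted p = 0.258). The transgenic pools differed directly by -0.75 ± 0.10 (adjusted p = 0.000571), lower in TgSREBP-1a. In the chow set Baat read 9.37 and 9.57 in Scap knockout, against 9.54 and 9.64 in wild type, with overlapping arrays (-0.12 ± 0.10).

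Slc27a5, the bile acid-CoA ligase, had its largest difference in Scap knockout. It read 10.07 and 9.99 there, against 10.70 and 10.74 in chow-fed wild type. This fall of 0.69 ± 0.10, or 1.62-fold, passed the test (adjusted p = 0.00351) but not without replicate 2 of Scap knockout (-0.66, adjusted p = 0.0516) or replicate 2 of wild type (-0.67, adjusted p = 0.0565). It read 10.80 and 10.71 in TgSREBP-1a and 11.21 and 10.99 in TgSREBP-2, against 11.09 and 10.88 in wild type on high protein. Neither transgenic difference passed the test, at -0.23 ± 0.10 (adjusted p = 0.157, or 0.0337 with the block) and 0.12 ± 0.10 (adjusted p = 0.617). Baat thus changed in TgSREBP-1a and Slc27a5 in Scap knockout. Whether each gene's effect differs between those models was not tested.

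The export pumps were the members that rose. Abcc3, which carries bile acid conjugates from hepatocytes into blood, read 9.86 and 10.00 in TgSREBP-1a and 9.93 and 10.00 in TgSREBP-2, against 9.06 and 9.01 in wild type on the same diet. It rose 1.86-fold in TgSREBP-1a (0.89 ± 0.09, adjusted p = 3.99e-05) and 1.91-fold in TgSREBP-2 (0.93 ± 0.09, adjusted p = 0.000105). The transgenic pools overlapped in Abcc3 and differed by -0.04 ± 0.09, with an interval of -0.23 to 0.15. In Scap knockout it read 9.12 and 9.25, against 9.37 and 9.43 in wild type, lower on both arrays but not called (-0.22 ± 0.09, adjusted p = 0.385).

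Abcc2, the canalicular pump for conjugated anions, read 7.20 and 6.89 in TgSREBP-1a and 7.68 and 7.57 in TgSREBP-2, against 6.81 and 6.82 in wild type on high protein. It rose 1.75-fold in TgSREBP-2 (0.81 ± 0.11, adjusted p = 0.00199). In TgSREBP-1a the difference of 0.23 ± 0.11 did not pass the test (interval -0.02 to 0.47, adjusted p = 0.212), and its arrays stood 0.30 apart. The direct difference between the transgenic pools was -0.58 ± 0.11 (adjusted p = 0.00669), just short of 1.5-fold. It passed 1.5-fold without replicate 1 of TgSREBP-1a (-0.73) or replicate 2 of TgSREBP-2 (-0.64). Scap knockout read 7.31 and 7.53, against 7.05 and 7.03 in chow-fed wild type, above it on both arrays but not called (0.38 ± 0.11, adjusted p = 0.164, or 0.0293 with the block).

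The Abcc2 window is shown because the gene rose with the SREBP-2 transgene. It lies at chr19:43782058-43782357 on the plus strand of GRCm38.p6, and capitals mark AAGGTCA, the extended nuclear receptor half-site, and 2 matches to CCAAT on the opposite strand.
Abcc2: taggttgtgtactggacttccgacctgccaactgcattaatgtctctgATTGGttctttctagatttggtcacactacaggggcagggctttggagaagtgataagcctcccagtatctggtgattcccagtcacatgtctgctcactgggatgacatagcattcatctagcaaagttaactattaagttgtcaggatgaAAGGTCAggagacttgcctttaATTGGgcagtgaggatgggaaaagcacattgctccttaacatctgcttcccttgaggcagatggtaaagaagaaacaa
AAGGTCA begins 50 bases before the start, contains AGGTCA, and is held by 4.72% of all windows on either strand. CCAAT is held by 37.4% of them. This window held no match to TCACNCCAC, CACGTG or TATAAA.

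**Figure D2:**
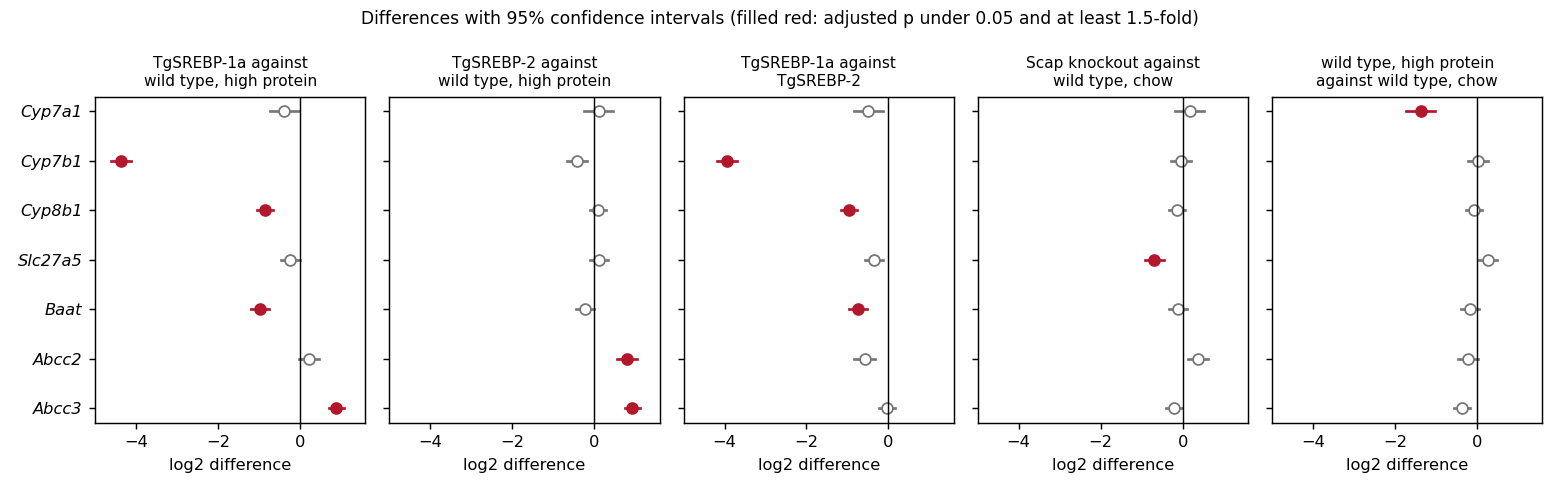
Log2 differences (x axis, first-named group minus second) of the 7 genes in the 5 comparisons, with 95% confidence intervals from the limma fit; filled red points passed the test. Cyp7b1 at -4.36 in TgSREBP-1a lies far outside the range of -1.37 to 0.93 of every other gene and comparison with a wild type pool.

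In the direct comparison of TgSREBP-1a with TgSREBP-2, 3 of the 7 genes were called, all lower in TgSREBP-1a (Cyp7b1, Cyp8b1 and Baat). Of all genes 5.19% were called, 2.24% higher and 2.95% lower. The difference was negative for each of the 7 genes as deposited, from -3.95 to -0.04. That of Abcc3 turned positive with another quantile normalization (0.02) or without replicate 1 of TgSREBP-1a (0.03). Cyp7a1 (-0.49 ± 0.16, adjusted p = 0.0889) and Slc27a5 (-0.35 ± 0.10, adjusted p = 0.0554) did not pass. With the block their adjusted p was 0.00481 and 0.00513, short of 1.5-fold. The amount of nuclear SREBP in the 2 lines was not analysed here.

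Other enzymes listed for the pathway moved less than Cyp7b1. The list held 13, and Cyp27a1, Cyp39a1, Akr1d1 and Acox2 were among those not measured. Of 8 measured, Akr1c6 fell in TgSREBP-1a (9.89 against 11.19, -1.30 ± 0.18, adjusted p = 0.000485) and Hsd17b4 rose (10.97 against 9.99, 0.98 ± 0.09, adjusted p = 3.89e-05). AKR1C6 is a hydroxysteroid dehydrogenase of mouse liver, and HSD17B4 is the peroxisomal enzyme that helps shorten the bile acid side chain. Hsd3b7 (-0.41 ± 0.09), the dehydrogenase that follows 7-alpha-hydroxylation, and Amacr (-0.49 ± 0.10), the racemase of the side chain, had adjusted p = 0.0101 and 0.00694 without reaching 1.5-fold. The list's median was -0.44 for TgSREBP-1a, 0.04 for TgSREBP-2 and -0.14 for Scap knockout. Without replicate 1 of TgSREBP-1a, 3 of the 8 were called lower, and 2 were without replicate 2 of wild type or with quantile normalization. In TgSREBP-2 limma called 0 of the 8, with 1 at an unadjusted p under 0.05, and in Scap knockout also 0, with 0 at that level. Between the wild type pools Hsd3b7 (-0.78 ± 0.09), Akr1c6 (-0.72 ± 0.18) and Hsd17b4 (-0.60 ± 0.09) were lower on the high protein diet. The call of Akr1c6 was lost without replicate 2 of wild type on that diet (-0.55) or either chow array (-0.70 and -0.75), and that of Hsd17b4 without the high protein array (-0.52) or with quantile normalization (-0.46).

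Of 18 other genes listed as transporters, 8 were measured, and few of these were called. Ephx1, among the 8, codes for an enzyme. Abcb11, Abcg5 and Abcg8 were among those not measured. Abcg2, an efflux pump, rose in TgSREBP-2 (8.21 against 7.48, 0.73 ± 0.17, adjusted p = 0.0327), but not without replicate 1 of TgSREBP-2 (adjusted p = 0.257) or either wild type array (adjusted p = 0.111 and 0.124), or in a fit of the high protein arrays alone (adjusted p = 0.109). Abcc6, an ABCC2 and ABCC3 relative, fell in Scap knockout (6.90 against 7.67, -0.77 ± 0.09, adjusted p = 0.00048). Abcb4, the pump that puts phosphatidylcholine into bile, differed there by 0.55 ± 0.07 (adjusted p = 0.002), short of 1.5-fold, and was called with quantile normalization (0.62, adjusted p = 0.000825). In TgSREBP-1a limma called 0 of the 8, with 2 at an unadjusted p under 0.05. There Ephx1 stood at 0.40 ± 0.07 and Abcc6 at -0.43 ± 0.09. Slc10a1, the main uptake carrier of bile acids, passed in none of these comparisons, at 0.15, 0.40 and -0.38 in TgSREBP-1a, TgSREBP-2 and Scap knockout. The median was -0.03, 0.20 and 0.03 in the same order. Ephx1, an epoxide hydrolase, was lower in wild type on high protein than on chow (-1.23 ± 0.07).

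Of 14 measured regulators, Nr1i3, the receptor CAR of foreign compounds, fell in TgSREBP-1a (8.28 against 9.25, -0.97 ± 0.08, adjusted p = 1.83e-05). In TgSREBP-2 it stood at 0.51 ± 0.08 (adjusted p = 0.00543), and the 2 transgenic pools differed by -1.48 ± 0.08 (adjusted p = 1.02e-06). Nr1h4, the gene of FXR, stood at -0.56 ± 0.11 in TgSREBP-1a (adjusted p = 0.00472) and Fgfr4, the receptor for the gut hormone that represses Cyp7a1, at -0.52 ± 0.08 (adjusted p = 0.00144), both short of 1.5-fold. Nr1h4 was called without replicate 1 of TgSREBP-1a (-0.66) or replicate 1 of wild type (-0.59) or with quantile normalization (-0.62), and Fgfr4 without replicate 2 of TgSREBP-1a (-0.59). Nr0b2, the repressor SHP that FXR induces, stood at -0.30 ± 0.08 in both transgenic pools, and Nr5a2, the activator LRH-1, at -0.17 ± 0.14 and 0.00 ± 0.14. The list's median was -0.17, -0.01 and -0.02 in TgSREBP-1a, TgSREBP-2 and Scap knockout. Limma called 0 of 14 in TgSREBP-2, with 4 at an unadjusted p under 0.05, and 0 in Scap knockout, with 1. Between the wild type pools Nr1d1, the clock repressor REV-ERB alpha, was higher on the high protein diet (0.86 ± 0.10). Nr1h3, the oxysterol receptor LXR alpha, was lower (-0.68 ± 0.11), but by under 1.5-fold without replicate 2 of chow-fed wild type (-0.56).

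**Figure D3:**
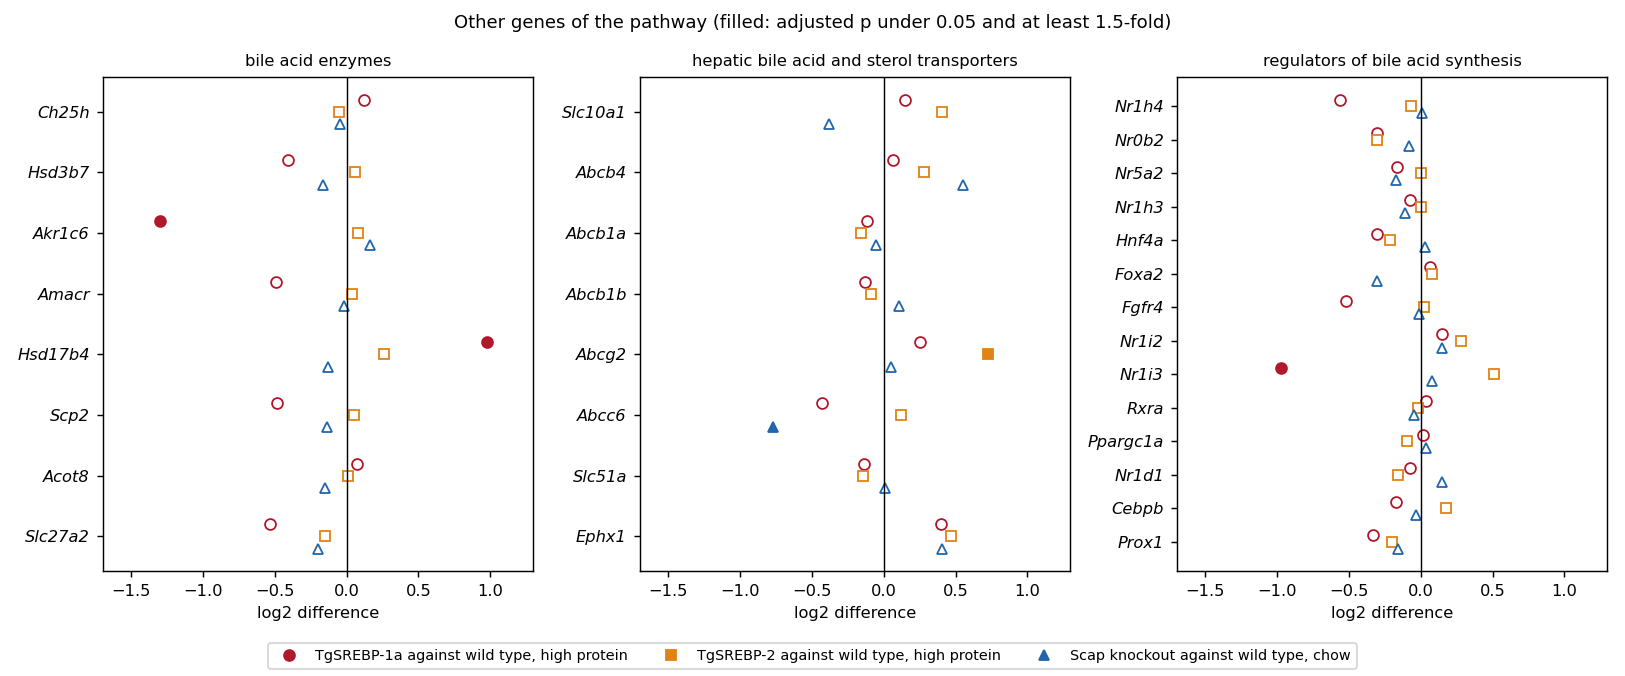
Log2 differences of 8 further genes listed as bile acid enzymes, 8 listed as transporters and 14 listed as regulators. Circles show TgSREBP-1a and squares TgSREBP-2, both against wild type on high protein, and triangles Scap knockout against chow-fed wild type. Filled symbols passed the test: Akr1c6, Hsd17b4 and Nr1i3 in TgSREBP-1a, Abcg2 in TgSREBP-2 and Abcc6 in Scap knockout.

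The genes most like each member were sought among 495 other genes whose group means span at least 1 log2 unit, by Pearson correlation over the 10 arrays, which are 5 pools read in duplicate. For Cyp7b1 these were the major urinary protein gene Mup3 (r = 0.9989), the immunoglobulin transporter Pigr (r = 0.9977) and the growth factor receptor Egfr (r = 0.9957). Their differences in TgSREBP-1a were -2.57, -2.96 and -1.95, so the likeness rests mainly on that pool. Cyp7b1 and Mup3 are both higher in male than in female mouse liver. Of 5 measured male-biased genes, Mup3, Hsd3b5, Elovl3 and Gstp1 fell in TgSREBP-1a, with a list median of -1.89, and Elovl3 did so by under 1.5-fold without replicate 1 of TgSREBP-1a (-0.54) or with 32 added (-0.47). In TgSREBP-2 Hsd3b5 (-1.74 ± 0.15) and Gstp1 (-1.52 ± 0.08) fell, with a median of -0.46, while Cyp7b1 stood at -0.42. Limma called 0 of the 5 in Scap knockout, with 2 at an unadjusted p under 0.05. Mup genes are near-identical, so the Mup3 probe set may read several of them.

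For Abcc3 the most similar genes were Lss (r = 0.9687), Tmem97 (r = 0.9650) and Mvd (r = 0.9615). Lss and Mvd are cholesterol synthesis enzymes and Tmem97 is a sterol-responsive membrane protein. Lss differed by 2.43 for TgSREBP-1a, 2.75 for TgSREBP-2 and -1.21 for Scap knockout, and by -1.03 between the high protein and chow wild type pools. Abcc3 had the same signs at 0.89, 0.93, -0.22 and -0.37, of which the first pair were called. For Baat they were Mug-ps1, Prodh2 and Ces3a (r = 0.9848, 0.9845 and 0.9773), and for Cyp8b1 Vtn, C9 and Hp (r = 0.9795, 0.9748 and 0.9739). For Cyp7a1 they were Gdpd3, Slc35d1 and Ddc (r = 0.9845, 0.9757 and 0.9738), with differences of -0.80, -0.64 and -1.28 between wild type on high protein and on chow. Slc27a5 was most like Uox, Orm1 and Scd1 (r = 0.9324, 0.9272 and 0.8509), and Abcc2 like Tmx2, Ndrg1 and Sacm1l (r = 0.8454, 0.8269 and 0.8218). Among the 7 genes themselves, Cyp7b1 correlated with Cyp8b1 at 0.9616 and with Baat at 0.9580, and Abcc2 with Abcc3 at 0.4272. The values for Cyp7b1 rest mainly on the TgSREBP-1a pool, the lowest for Cyp7b1, Cyp8b1 and Baat. Among the other pools TgSREBP-2 was lowest for Cyp7b1 (9.91) and Baat (9.18) but highest for Cyp8b1 (11.16). The genes most like Baat and Cyp8b1 were likewise lowest in TgSREBP-1a.

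**Figure D4:**
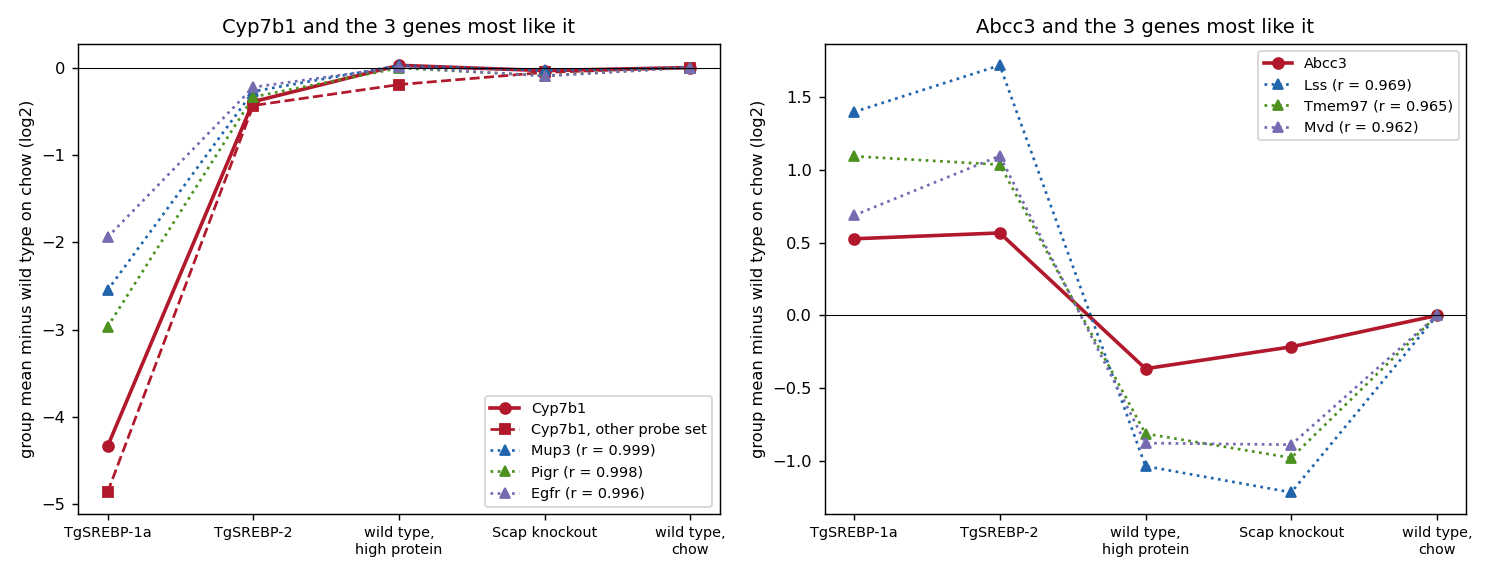
Group means of Cyp7b1 (left, both probe sets) and Abcc3 (right) with the 3 genes most like each, as log2 difference from the same gene's mean in chow-fed wild type; lines only join the points of a gene. Cyp7b1, Mup3, Pigr and Egfr share a drop in TgSREBP-1a, and Abcc3, Lss, Tmem97 and Mvd stand above 0 in both transgenic pools and below 0 in wild type on high protein and in Scap knockout.

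Genes of foreign compound metabolism, several of which share regulators with Abcc2 and Abcc3, moved both ways in TgSREBP-1a, with 5 of 21 called higher and 4 lower. In TgSREBP-2 1 rose (Cyp3a11) and 1 fell (Cyp2c39), with 0 called lower when 32 was added and 2 or 3 without replicate 1 or 2 of wild type. In Scap knockout 1 rose (Gstm3) and 1 fell (Gsta3). Without replicate 1 of Scap knockout 2 were called higher and 0 lower, and without either wild type array 0 were called lower. Cyp3a11, the main bile acid-inducible P450 of mouse liver, rose by 2.00 ± 0.14 in TgSREBP-1a. It rose by 0.81 ± 0.14 in TgSREBP-2, lost without replicate 1 of TgSREBP-2 (0.59, adjusted p = 0.0597) or replicate 2 of wild type (0.72, adjusted p = 0.0605), or in a fit of the high protein arrays alone (adjusted p = 0.0504). Gstm3, a glutathione transferase, rose by 2.14 ± 0.10 in TgSREBP-1a and by 0.95 ± 0.10 in Scap knockout. Of 6 female-biased genes, Cyp2b9 and Cyp17a1 were called higher in TgSREBP-1a, where the list's median was 0.13 and its lowest difference -0.08. In TgSREBP-2 and Scap knockout limma called 0 of the 6, with 2 at an unadjusted p under 0.05 in each.

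Markers of cell types were read beside these results. Alb stood above the 99th percentile of genes on every array, as fits the liver label. Of 4 hepatocyte markers Ttr was called, lower in TgSREBP-1a (-1.37 ± 0.10). All 4 had an unadjusted p under 0.05 there, with a median of -0.29, Alb being higher and Apoa1, Ttr and Hnf4a lower. Their summed log2 level was 14.69 to 14.71 in TgSREBP-1a, against 14.72 to 14.74 in wild type on the same diet, a sum carried by Alb and Apoa1 near the top of the scale. The 7 measured exocrine pancreas markers all fell in TgSREBP-1a, at a summed level of 10.35 to 10.40 against 13.98 to 13.99, and all fell in Scap knockout, at 10.82 to 10.87 against 12.97 to 13.00 in wild type. In TgSREBP-2 they summed to 14.40 to 14.43, and Prss2 and Reg1 rose, with 4 called without replicate 2 of TgSREBP-2 or replicate 1 of wild type, and 1 with quantile normalization, where Prss2 stood at 0.55. Macrophage markers summed to 12.01 to 12.09 in TgSREBP-1a and 11.70 to 11.80 in TgSREBP-2, against 11.28 to 11.32 in wild type, with 5 and 3 of 9 called higher. That last count was 1 without replicate 1 of TgSREBP-2 or with the mean of all probe sets. Marco and Adgre1 had lower means in TgSREBP-2 than in its wild type. Marco read 5.73 and 6.32 there, against 6.14 and 6.53, and Adgre1 6.82 and 6.71, against 6.81 and 6.90. In macrophage markers wild type on high protein was itself below wild type on chow (median -0.58, with 4 of 9 called lower). In pancreas markers it was above wild type on chow (median 0.90, with 6 of 7 called higher). The marker not called, Reg1, was lower on high protein, at 8.26 and 8.17 against 8.73 and 8.72. Macrophage markers summed to 11.82 to 11.85 in Scap knockout, against 11.86 to 11.96 in its wild type. There limma called 0 of 9, with 2 at an unadjusted p under 0.05. With the replicate block, or in a fit of the chow arrays alone, 1 of the 9 was called lower. The bile duct markers Krt19, Krt7 and Epcam, at a summed 6.72 to 6.95 over all arrays, and the 6 gut markers, at 8.17 to 8.53, were not called in any comparison with wild type of the same diet. Pancreas markers fell in both TgSREBP-1a and Scap knockout, whose called members were not the same. Some macrophage markers, 5 of 9 in TgSREBP-1a and 3 of 9 in TgSREBP-2, were called higher in the pools where Abcc3 was also called. The part of either in the calls above was not tested.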

How the data were processed

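Liver RNA of 5 groups was measured on Affymetrix MG_U74Av2 arrays, with RNA of 5 mice per group pooled (20 µg) and each pool hybridised to 2 arrays, per the labels' protocols. The authors deposited log2 signals for 12488 probe sets. RMA is named in the submitters' processing notes without a version, and the design text names Microarray Suite 5.0. The lowest value is 2.68, the highest 14.03, and array medians lie between 6.37 and 6.40, so the values were taken as normalized log2 signals. The number of arrays limits the precision.

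Probe sets with 1 gene symbol (10833, of which 10817 were matched to RefSeq by gene ID) were used. Controls (66) and those with several symbols (396) or none (1193) were not used. For a gene with several probe sets, the one highest on average stood for it, which gave 8251 genes. All 10 arrays were fitted with limma 3.58.1 in R 4.3.3, 1 coefficient per group and 5 residual degrees of freedom, with 5 contrasts and Benjamini-Hochberg adjustment over all genes. Errors after ± are moderated standard errors. With 1 variance per gene over all groups, p-values may be too small for the high protein pools, whose duplicates differed more. For Cyp7a1, whose duplicates differed most in Scap knockout, p-values of the high protein pools may be too large. Same-numbered arrays deviated together within the high protein set (r = 0.46, 0.60 and 0.61 over genes between pairs of pools) and in the chow set (0.30), so the array number was added as a block in a further fit. This pairing rests on the data, since no label explains the number.

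The 7 members and all gene lists were chosen with earlier results of these data known. The text names all members, the genes called in the enzyme, transporter and regulator lists, and the 3 genes most like each member. Of the other lists it gives counts with examples, and uncalled genes were named after their values were seen. Promoter windows come from RefSeq, GRCm38.p6.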

Additional observations from a re-analysis of the deposited data

Results flagged for a closer look

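The effects of the 2 transgenes, each against the same wild type pool, differed for 3 of the 7 genes by the direct limma comparison, in which the shared wild type level cancels. TgSREBP-1a minus TgSREBP-2 was -3.95 for Cyp7b1, -0.95 for Cyp8b1 and -0.75 for Baat. In each the 2 TgSREBP-1a arrays lay below both TgSREBP-2 arrays. Groups of 2 arrays are too small for a check of single outlying arrays.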

How the results depend on the processing

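The 7 genes in 5 comparisons gave 378 values under the alternatives, of which 363 kept their direction and call. All called differences of Cyp7b1, Cyp8b1, Baat, Abcc2, Abcc3 and Cyp7a1 were called under every alternative run. With the replicate number as a block, all 35 values kept their call. The limma adjusted p of 7 uncalled differences, each under 1.5-fold, went below 0.05: Cyp7a1 (0.0153) and Slc27a5 (0.0337) in TgSREBP-1a, Cyp7b1 in TgSREBP-2 (0.00928), Abcc2 in Scap knockout (0.0293), Cyp7a1 (0.00481) and Slc27a5 (0.00513) between transgenic pools, and Slc27a5 between wild type pools (0.0151). The block moved no count over all genes by over 1.5 times, and of the list counts it moved that of macrophage markers lower in Scap knockout, to 1. The members called in Scap knockout numbered 0 to 1 without single arrays. Differences of genes not called turned sign as follows, and the cause was not tested. With quantile normalization Cyp8b1 was at -0.014 in TgSREBP-2 and 4e-04 between wild type pools, Cyp7b1 at 0.018 in Scap knockout, and Abcc3 at 0.022 between transgenic pools. The mean of both probe sets placed Cyp7b1 at -0.085 between wild type pools. Without single arrays the differences ranged from -0.14 to 0.49 for Cyp7a1 in Scap knockout, from -0.13 to 0.056 for Cyp7b1 in Scap knockout, from -0.064 to 0.11 for Cyp7b1 between wild type pools, and from -0.11 to 0.032 for Abcc3 between transgenic pools. With 32 added on the linear scale, 21 genes were called lower in TgSREBP-2 (32 as deposited), 39 higher in Scap knockout (61) and 237 lower between wild type pools (358). Without single arrays, genes called higher ranged from 110 to 234 in TgSREBP-2, 39 to 50 in Scap knockout and 93 to 165 between wild type pools, and genes called lower in TgSREBP-2 from 21 to 48. The fit on 1 set only could not be made for the wild type pools. Dim probe sets such as Cyp7b1 in TgSREBP-1a limit the size of a fall that can be read.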

Other observations

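Cyp7a1 was 1 of 6 genes whose duplicate Scap knockout arrays stood at least 1.5-fold apart, at 7.42 and 8.05, so its level in that pool is the least certain of the 7 genes. Cyp2b9 and Cyp17a1, P450 genes higher in female than in male mouse liver, stood at 1.71 ± 0.10 and 1.88 ± 0.09 in TgSREBP-1a, and at 0.25 and -0.27 in TgSREBP-2. The median of the 6 female-biased genes measured was 0.13 in TgSREBP-1a, so the list did not rise as a whole.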
